A study of Mus musculus with 63 samples.

Results

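Genes that carry glutamate, GABA, glycine and glutamine across astrocyte membranes or metabolise them in astrocytes were followed through 4 kinds of cells sorted from the mouse cortex 5 weeks after burn or sham injury. The 9 genes were picked by symbol and not by their values, and they are 9 of the 56980 rows in each count table. These are the glutamate transporters Slc1a2 and Slc1a3, the GABA transporter Slc6a11, the glycine transporter Slc6a9, the glutamine synthetase gene Glul, the glutamine transporter Slc38a3, and the enzyme genes Glud1, Abat and Maob. Each was found as 1 row by its Ensembl identifier.

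All mice were female C57BL/6J, 12 weeks old on arrival, and all of them, burned or not, received injections of 2 adeno-associated viruses into the motor cortex of both sides, CaMKII-eGFP and mDlx-mRuby2. In the same session burn mice had a full-thickness burn from a heated brass cylinder of 19 mm diameter on the right flank, about 7 to 8% of the body surface, and sham mice had their flank shaved without it. Cells with eGFP alone were sorted from the motor cortex as CaMKII positive neurons, and cells with both fluorophores as CaMKII-mDlx double-positive neurons. Astrocytes with the ACSA2 antigen and microglia with CD11b were sorted by antibody from cortex behind the motor cortex, so between either of these and either virus-labelled population cell type, region and kind of sort cannot be told apart. The libraries analysed were 58 of 63, from 17 mice: 17 ACSA2-positive (9 burn, 8 sham), 15 CD11b-positive (8 burn, 7 sham), 10 CaMKII positive (4 burn, 6 sham) and 16 double-positive (9 burn, 7 sham). Total counts per library ran from 13346143 to 134703744, and the libraries came from 3 sequencing batches, with 5 burn and 5 sham mice of batch 3 in every population but the CaMKII positive one, which had 3 and 5. Batch 1 held burn mice alone among the double-positive libraries, and batch 2 held a sham mouse alone among the CD11b-positive ones.

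As background, astrocytes take up most of the glutamate that neurons release, through the transporters EAAT2 (also called GLT-1, from Slc1a2) and EAAT1 (GLAST, from Slc1a3). Glutamine synthetase joins the glutamate with ammonia, SNAT3 (Slc38a3) lets the glutamine out, and neurons take it up to make glutamate and GABA again. GAT-3 (Slc6a11) and GlyT1 (Slc6a9) clear GABA and glycine around synapses, GABA transaminase (Abat) and glutamate dehydrogenase (Glud1) feed carbon into the mitochondrial energy cycle, and monoamine oxidase B (Maob) degrades amines and lies on a route by which astrocytes can make GABA from putrescine.

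The sort labels were first set against marker genes, as the summed CPM (read counts scaled to the library total) of each list in each library. The 10 astrocyte markers, which include Atp1b2, the gene of the ACSA2 antigen, summed to 13090 to 18020 CPM in the ACSA2-positive libraries, and the 9 microglia markers summed to 19566 to 30802 CPM in the CD11b-positive libraries. The ACSA2-positive libraries also held other lists, among them endothelial (141 to 1396 CPM), mural (365 to 882 CPM) and excitatory neuron markers (11.5 to 1491 CPM). In the CaMKII positive libraries the astrocyte markers summed to 5760 to 9232 CPM and 6 endothelial markers to 3725 to 10427 CPM, while the 6 markers shared by all neurons summed to 20.8 to 141 CPM. Excitatory neuron markers summed there to 22.8 to 397 CPM, microglia markers to 432 to 1996 CPM and oligodendrocyte markers to 222 to 3707 CPM. In the double-positive libraries the microglia markers summed to 16183 to 30736 CPM, the all-neuron markers to 6.03 to 29.1 CPM and the 9 inhibitory neuron markers to 0.82 to 3.75 CPM, with Dlx5 at 0 in 14 of the 16. The 2 neuron labels therefore go against the markers, and these are called CaMKII positive and double-positive libraries here, by their sort alone. In such bulk libraries, fewer cells of a type and less RNA per cell cannot be told apart.

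The 250 bases before the RefSeq start were available for 6 of the 9 genes. Those of the 5 with a single start are printed, to set what precedes them beside their levels. Slc6a11 and Slc1a2 set the ACSA2-positive libraries farthest apart from the CD11b-positive ones, and Glul, Glud1 and Slc1a3 did so least, as given below. They are read 5′ to 3′ on the gene's strand from RefSeq on GRCm38.p6, with every CG dinucleotide in capitals, the pair whose cytosine can be methylated.

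Slc1a2: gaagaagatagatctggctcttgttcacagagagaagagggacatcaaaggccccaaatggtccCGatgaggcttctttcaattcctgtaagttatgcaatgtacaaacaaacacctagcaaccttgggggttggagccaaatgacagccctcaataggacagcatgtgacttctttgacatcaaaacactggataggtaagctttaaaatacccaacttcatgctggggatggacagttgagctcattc
Slc1a3: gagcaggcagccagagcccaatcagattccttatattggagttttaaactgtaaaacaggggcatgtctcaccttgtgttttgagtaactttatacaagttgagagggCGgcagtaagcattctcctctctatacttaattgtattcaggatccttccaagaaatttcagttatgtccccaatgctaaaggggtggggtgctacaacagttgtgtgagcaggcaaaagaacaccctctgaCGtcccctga
Slc6a11: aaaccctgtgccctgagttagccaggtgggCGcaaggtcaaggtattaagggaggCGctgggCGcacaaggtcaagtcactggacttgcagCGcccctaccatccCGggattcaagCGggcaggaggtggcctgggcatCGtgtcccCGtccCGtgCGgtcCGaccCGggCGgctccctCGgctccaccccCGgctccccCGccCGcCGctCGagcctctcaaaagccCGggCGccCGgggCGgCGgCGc
Glul: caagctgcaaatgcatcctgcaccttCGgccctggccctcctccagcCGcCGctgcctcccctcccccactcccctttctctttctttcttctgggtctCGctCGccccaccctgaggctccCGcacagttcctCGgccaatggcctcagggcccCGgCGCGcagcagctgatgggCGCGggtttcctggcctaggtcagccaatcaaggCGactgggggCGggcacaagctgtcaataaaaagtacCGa
Glud1: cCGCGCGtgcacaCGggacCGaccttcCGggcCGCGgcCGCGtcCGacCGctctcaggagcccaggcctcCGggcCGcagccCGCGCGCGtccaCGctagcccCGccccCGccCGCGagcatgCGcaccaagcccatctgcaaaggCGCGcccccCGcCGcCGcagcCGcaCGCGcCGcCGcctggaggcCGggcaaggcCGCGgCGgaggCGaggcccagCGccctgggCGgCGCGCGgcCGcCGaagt

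The Slc1a2 stretch, at chr2:102706188-102706437 on the plus strand, held 1 CG, and 92.1% of 32851 mouse promoters of that length held as many or more. Its RefSeq start lies inside the GENCODE gene, which begins at position 102658659, so this is 1 start of that gene and not its first. The Slc1a3 stretch (chr15:8710808-8711057, minus strand) held 2 CG, the Glul stretch (chr1:153899679-153899928, plus strand) 15, and the Glud1 stretch (chr14:34310477-34310726, plus strand) 46, a number that 0.32% of promoters reach. The median over all promoters was 6, with quartiles of 2 and 16. The Slc6a11 stretch (chr6:114130991-114131240, plus strand) held 25 CG, more than that of Glul, so the count did not follow the order of the differences between cell types. The 3 starts of Slc6a9 had 9, 10 and 8. No such entry was at hand for Slc38a3, Abat and Maob. CG is the same on both strands and cannot overlap itself, and the count says nothing on methylation, which was not measured.

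In the ACSA2-positive libraries the 9 genes together took 4.17 ± 0.46% of all counts (SD, n = 17), against 2.18 ± 0.37% in the CaMKII positive libraries (n = 10), 0.283 ± 0.040% in the double-positive libraries (n = 16) and 0.224 ± 0.021% in the CD11b-positive libraries (n = 15). Levels between genes were compared as CPM per kilobase of exon. On that scale the order in the ACSA2-positive libraries was Glul (2331), Slc1a2 (1754), Slc1a3 (723), Slc6a11 (395), Glud1 (256), Slc38a3 (180), Abat (62.1), Maob (50.3) and Slc6a9 (24.3). Each gap between neighbours in that order was larger than the SD of the difference over the 17 libraries. The CD11b-positive libraries began with Glul (556), Glud1 (36.4), Slc1a3 (19.9) and Slc1a2 (4.36), and there the gaps among the last 5 genes, from Slc38a3 (0.603) down, were within the spread. In the double-positive libraries Glul (572) led as well, and Glud1 (37.9), Slc1a3 (33.8) and Slc1a2 (32.0) followed within the spread of one another.

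**Figure D1:**
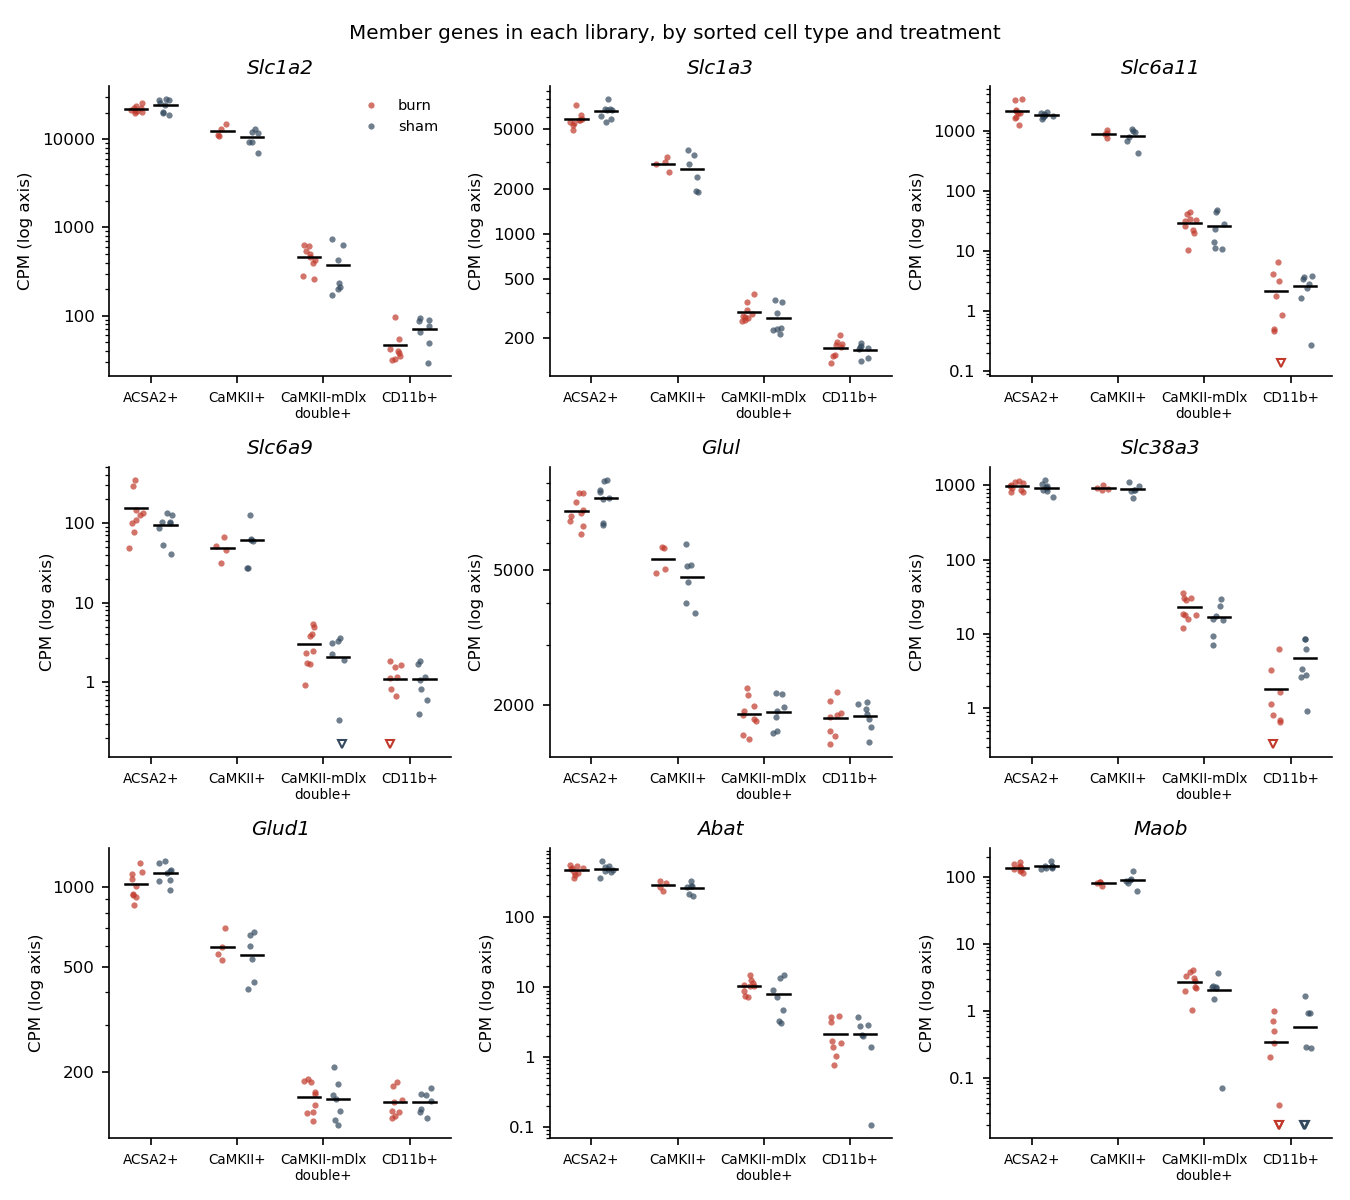
CPM (log axis) of each of the 9 genes in every library analysed, by sorted population, with burn libraries in red and sham libraries in dark blue. Black bars are group means and open triangles at the lower edge are libraries with a count of 0. Group means step down from ACSA2-positive to CD11b-positive libraries, while Glul and Glud1 lie at the same height in the double-positive and CD11b-positive libraries, and burn and sham points overlap everywhere.

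The glutamate transporters came next to Glul by level per kilobase in the ACSA2-positive libraries. Slc1a2 (ENSMUSG00000005089, chr2:102658659-102790784 on GRCm38) stood at 23035 ± 3172 CPM in the ACSA2-positive libraries, from 18652 to 28324 CPM. It stood at 11229 ± 2232 CPM in the CaMKII positive, 420 ± 178 CPM in the double-positive and 57.3 ± 25.1 CPM in the CD11b-positive libraries. No library of 1 population overlapped those of another, so this order held library by library. Slc1a3 (ENSMUSG00000005360, chr15:8634124-8710764) had 6175 ± 778, 2793 ± 587, 289 ± 53.2 and 170 ± 20.4 CPM in the same order, so the step from double-positive to CD11b-positive libraries was far shallower for Slc1a3 than for Slc1a2.

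The pair of uptake carriers for inhibitory transmitters was lower and more variable. Slc6a11 (ENSMUSG00000030307, chr6:114131241-114249952) had 1996 ± 546 CPM in the ACSA2-positive, 846 ± 192 CPM in the CaMKII positive, 27.5 ± 12.5 CPM in the double-positive and 2.38 ± 1.82 CPM in the CD11b-positive libraries. Slc6a9 (ENSMUSG00000028542, chr4:117834506-117875198) had 125 ± 79.5, 56.3 ± 29.2, 2.63 ± 1.56 and 1.10 ± 0.556 CPM, and only the step from CaMKII positive to double-positive libraries was free of overlap. Its coefficient of variation in the ACSA2-positive libraries, 63.7%, was the highest of the 9 genes there, where the median over 10030 genes with a mean of at least 10 CPM was 17.0%. Of its exon bases, 38.6% lie opposite other genes on the other strand (B4galt2, Ccdc24 and Gm17114), and whether the counting used strand is not stated.

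Glutamine synthesis and glutamine export parted. Glul (ENSMUSG00000026473, chr1:153899944-153909723) had 7746 ± 865 CPM in the ACSA2-positive and 5006 ± 746 CPM in the CaMKII positive libraries, and nearly equal levels of 1902 ± 205 CPM in the double-positive and 1847 ± 193 CPM in the CD11b-positive ones. Slc38a3 (ENSMUSG00000010064, chr9:107650634-107669530) had 950 ± 134 and 902 ± 115 CPM in the ACSA2-positive and CaMKII positive libraries, with overlapping ranges, and 20.4 ± 8.39 and 3.18 ± 2.89 CPM in the double-positive and CD11b-positive ones. Of Glul's 50-base exon windows, 12.6% also occur in other genes, Glns-ps1 among them, so a part of its reads could have been split or dropped in counting.

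Of the 3 degrading enzymes, Glud1 (ENSMUSG00000021794, chr14:34310727-34345265) followed Glul, at 1077 ± 121, 570 ± 96.3, 159 ± 24.3 and 153 ± 16.3 CPM in the ACSA2-positive, CaMKII positive, double-positive and CD11b-positive libraries. Abat (ENSMUSG00000057880, chr16:8513429-8621568) had 481 ± 70.4, 274 ± 44.4, 9.40 ± 3.73 and 2.16 ± 1.18 CPM, and Maob (ENSMUSG00000040147, chrX:16709282-16817366) had 140 ± 14.2, 85.8 ± 16.0, 2.42 ± 1.04 and 0.454 ± 0.487 CPM. Maob was at 0 counts in 4 of the 15 CD11b-positive libraries.

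To set these levels beside the astrocyte signal in each sort, every gene was given as a percent of its level in the ACSA2-positive library of the same mouse. In the CaMKII positive libraries 8 of the 9 genes had medians from 50.8% (Slc1a3) to 64.6% (Glul), inside the range of the 10 astrocyte markers, 30.6 to 65.8%. Slc38a3 stood above that range, at 87.2% (65.5 to 124% over 10 mice), and was lower than in the ACSA2-positive library in 6 of 10 mice. In the double-positive libraries 5 genes lay at 1.65 to 2.27% and Slc6a11 at 1.40%, beside marker medians of 1.44 to 2.52%. Slc1a3 (4.94%), Glud1 (14.8%) and Glul (25.3%) lay above them.

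In the CD11b-positive libraries the marker medians were 0.0954 to 0.795% of the astrocyte level. Slc6a11 (0.108%), Maob (0.189%), Slc1a2 (0.231%), Slc38a3 (0.309%) and Abat (0.405%) lay among them, and Slc6a9, at 1.07%, lay just above. Slc1a3 (2.62%), Glud1 (14.5%) and Glul (24.2%) were again well above the markers. For 5 of the genes the signal in the microglia sort was thus no higher, relative to astrocytes, than that of genes that define astrocytes, and for Slc1a3, Glud1 and Glul it was higher than that of any of the 10 markers.

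**Figure D2:**
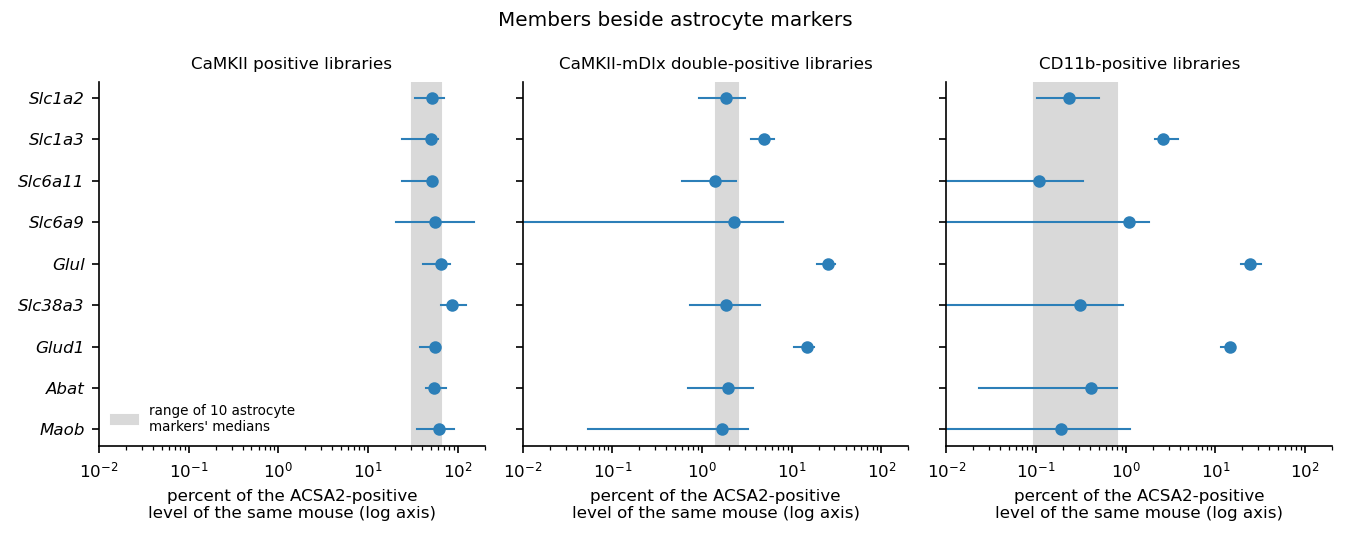
Each gene's CPM as a percent of its CPM in the ACSA2-positive library of the same mouse (log axis), for the 3 other sorts. Points are medians over 10, 16 and 15 mice, lines run from the lowest to the highest mouse and stop at the left edge where the lowest is under 0.01%, and the grey band is the range of the 10 astrocyte markers' medians; Glul, Glud1 and Slc1a3 stand right of the band in the double-positive and CD11b-positive panels.

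The populations were then tested in 1 edgeR fit over 33150 genes, with batch and treatment in the model, and a gene was called where its adjusted p (p.adj) was 0.05 or less and its log2 fold change (log2FC) was 1 or more in size. Against the CD11b-positive libraries all 9 genes were called higher in the ACSA2-positive ones, where 32.1% of all genes were. Their log2FC ran from 2.12 (Glul) and 2.86 (Glud1) to 8.69 (Slc1a2) and 9.92 (Slc6a11), with a median of 7.88 against 0.243 over all genes. Against the double-positive libraries all 9 were called as well, beside 29.1% of all genes, and their log2FC ran from 2.10 (Glul) to 6.25 (Slc6a11). The CaMKII positive libraries also held more of all 9 than the double-positive (27.7% of all genes called) and the CD11b-positive ones (29.6%), with medians of 4.69 and 6.94.

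Between the ACSA2-positive and CaMKII positive libraries the differences were of about 1 log2 unit. Slc6a11 (log2FC 1.43 ± 0.32, SE), Slc1a3 (1.30 ± 0.12), Slc6a9 (1.19 ± 0.33), Slc1a2 (1.17 ± 0.21) and Glud1 (1.05 ± 0.08) were called higher in the ACSA2-positive libraries, 5 of 9 beside 4.34% of all genes. Abat (0.94 ± 0.22), Maob (0.88 ± 0.28) and Glul (0.78 ± 0.09) passed the p.adj and not the fold. Slc38a3 differed by 0.31 ± 0.32, with p.adj = 0.51 in edgeR's quasi-likelihood test. The Slc6a9 call was lost with mouse as a block (0.98, p.adj = 0.025) and in sham mice alone (0.79, p.adj = 0.20, edgeR). With library size as the only scaling 2 of the 9 were called, and Glud1 fell under the fold in batch 3 alone (0.95), with DESeq2 (0.98) and without mouse 8 (0.94).

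Between double-positive and CD11b-positive libraries the genes parted. Slc6a11 (3.67), Slc38a3 (2.86), Slc1a2 (2.83), Maob (2.56), Abat (2.10) and Slc6a9 (1.29) were called higher in the double-positive libraries, 6 of 9 beside 6.37% of all genes. The Slc6a9 call was lost in batch 3 alone (0.99, p.adj = 0.20) and in sham mice alone (0.98, p.adj = 0.39, edgeR). Glul (0.02 ± 0.08, SE) and Glud1 (0.03 ± 0.07) did not differ beyond their error, with p.adj of 0.97 and 0.87 by edgeR, and Slc1a3 had a log2FC of 0.74, under the fold. The astrocyte markers moved with the 6 genes, with sums of 112 to 454 CPM in the double-positive and 14.1 to 71.3 CPM in the CD11b-positive libraries, and their part in the difference was not tested.

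Ratios of 2 of the genes within a library do not depend on scaling between libraries, and 3 were taken. Slc1a2 to Slc1a3 had a median CPM ratio of 3.67 in the ACSA2-positive libraries, where it ran only from 3.34 to 4.30 over 17 mice, and of 3.97 (3.55 to 4.93) in the CaMKII positive ones. The ratio dropped to 1.52 (0.799 to 2.03) in the double-positive and to 0.288 (0.156 to 0.660) in the CD11b-positive libraries, so Slc1a3 was the more abundant of the pair in the microglia sort. By an exact permutation of signs within mice, adjusted over 21 ratio tests, the drop of 3.58 on the log2 scale from ACSA2-positive to CD11b-positive libraries of the same mouse had p.adj = 0.000427 and was seen in 15 of 15 mice. The CaMKII positive ratio was higher than the ACSA2-positive one by 0.15 on the log2 scale in 9 of 10 mice (exact permutation test, p.adj = 0.026), a call that was lost in batch 3 alone (0.11, p.adj = 0.10) and without mouse 8, 16 or 22.

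Glul to Slc38a3 rose the other way, from a median of 8.30 in the ACSA2-positive libraries to 103 in the double-positive and 747 in the CD11b-positive libraries. The CD11b-positive value covers 14 libraries, as 1 with a Slc38a3 count of 0 was left out. It ran from 212 to 3096 and rests on Slc38a3 counts of at most 189. The ratio was lower in the CaMKII positive libraries, at 5.42, than in the ACSA2-positive library of the same mouse in 10 of 10 mice (log2 difference −0.52, exact permutation test, p.adj = 0.0068). So relative to Glul, Slc38a3 was higher in the CaMKII positive sort than in the astrocyte sort. Slc6a11 to Abat, the GABA carrier over the GABA-degrading enzyme, went from 3.85 in the ACSA2-positive libraries to 3.10, 3.23 and 1.08 in the CaMKII positive, double-positive and CD11b-positive ones, and all 3 steps passed the test (p.adj 0.027, 0.0015 and 0.013, exact permutation tests). In batch 3 alone the CaMKII positive step (−0.23, p.adj = 0.10) and the CD11b-positive step (−1.26, p.adj = 0.13) failed the exact permutation test, and the CaMKII positive call was lost without mouse 8, 16, 19 or 22 (p.adj = 0.055 each). In the CD11b-positive libraries it rests on few counts and ran from 0.158 to 34.0 over 14 libraries, as 1 with a Slc6a11 count of 0 was left out.

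**Figure D3:**
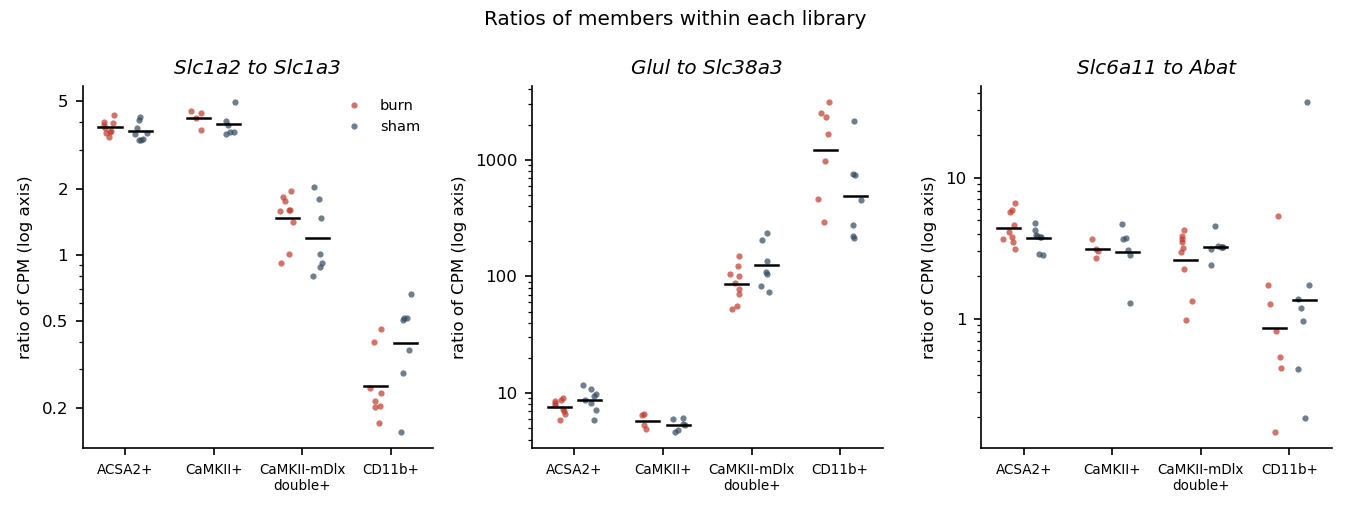
CPM ratio of 2 genes within each library (log axis), by sorted population, with burn libraries in red, sham libraries in dark blue and the geometric mean of each group as a bar. The Slc1a2 to Slc1a3 ratio keeps to 3.34 to 4.30 in the ACSA2-positive libraries and falls below 1 in all 15 CD11b-positive ones, while Glul to Slc38a3 climbs from a median of 8.30 to 747.

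The study asked whether a burn leaves lasting changes in these cell types. In the ACSA2-positive libraries none of the 9 genes was called between burn and sham, where 0% of 27930 genes were called by edgeR, 2984 had an unadjusted p under 0.05 and DESeq2 called 27 genes, none of the 9 among them. Slc6a9 had the largest log2FC of the 9, 0.86 ± 0.22 (SE, unadjusted p = 0.00073, p.adj = 0.458 in edgeR). Slc1a3 was the other gene with an unadjusted p under 0.05 (log2FC −0.23 ± 0.11, p.adj = 0.458 in edgeR). Slc6a11 came next in size, at 0.27 ± 0.15 (unadjusted p = 0.095, p.adj = 0.56 in edgeR). Slc1a2 and Glul both had −0.17, Glud1 had −0.17 ± 0.09, Abat −0.12 and Maob −0.10, and Slc38a3 stood at 0.02 ± 0.10. The median over the 9 was −0.12 against 0.045 over all genes. The astrocyte markers, as the median gene of the list, had 1081 ± 127 CPM in burn and 1172 ± 97.0 CPM in sham mice (SD). On the same measure some lists of other cell types were higher in burn mice, with 79.0 ± 28.3 against 51.1 ± 24.5 CPM for the 6 endothelial, 65.0 ± 11.7 against 49.1 ± 27.7 CPM for the 5 mural and 40.9 ± 7.43 against 27.3 ± 11.4 CPM for the 5 oligodendrocyte precursor markers, and the border macrophage and red blood cell lists were near 0 (0.0837 against 0 and 0.0367 against 0.00383 CPM). Others were lower in burn mice, with 3.87 ± 1.54 against 6.26 ± 10.8 CPM for the all-neuron, 1.82 ± 1.03 against 2.91 ± 4.69 CPM for the excitatory neuron, 0.187 ± 0.219 against 0.354 ± 0.514 CPM for the inhibitory neuron, 1.97 ± 1.42 against 2.65 ± 2.90 CPM for the microglia and 7.12 ± 2.95 against 7.47 ± 10.0 CPM for the oligodendrocyte markers. The burn and sham ranges overlapped for each of these lists, and their part in the values was not tested.

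The level in each ACSA2-positive library shows what lies behind these values. Slc1a3 had 4976, 5788 and 7283 CPM as the lowest, median and highest of 9 burn mice, and 5584, 6727 and 7935 CPM in 8 sham mice. The 2 ranges overlapped, and 4 burn mice lay below the lowest sham mouse. Slc1a2 had 19906, 21413 and 25954 CPM in burn and 18652, 25053 and 28324 CPM in sham mice, so the burn range lay wholly inside the sham range. Glul had 6365, 7332 and 8404 CPM in burn and 6764, 8288 and 9147 CPM in sham mice.

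Slc6a9, the glycine transporter gene, had 76.6, 109 and 48.1 CPM in the 3 burn mice of batch 1 and 40.6 CPM in the sham mouse. In batch 2 the burn mouse had 144 CPM and the 2 sham mice had 86.9 and 53.2 CPM. In batch 3 the burn mice had 132, 292, 128, 345 and 101 CPM, and the sham mice 125, 103, 104, 133 and 99.7 CPM. Mice 21 and 23 stood far above all others, and the other 3 burn mice of batch 3 lay inside the sham range of that batch.

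The same 2 mice were also the highest for Slc6a11, at 3336 and 3290 CPM, against 1249 to 2234 CPM in the other 7 burn mice and 1563 to 2032 CPM in the 8 sham mice. Their astrocyte marker sums, 16295 and 17432 CPM, and their oligodendrocyte precursor marker sums, 190 and 159 CPM, lay within the ranges of the other ACSA2-positive libraries. The other marker lists are not given here for these 2 mice, and the part of cell mix in their values was not tested. Without mouse 23 the Slc6a9 log2FC was 0.67, and with 1 mouse at a time removed (17 fits) it ran from 0.67 to 0.96 with p.adj of 0.42 to 0.61 in edgeR. With no filter on low counts its p.adj was 0.032 and 8 of 33208 genes had a p.adj of at most 0.05, still under the fold at 0.85. Its opposite-strand neighbour B4galt2 had 8.37 to 36.6 CPM in the ACSA2-positive libraries.

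**Figure D4:**
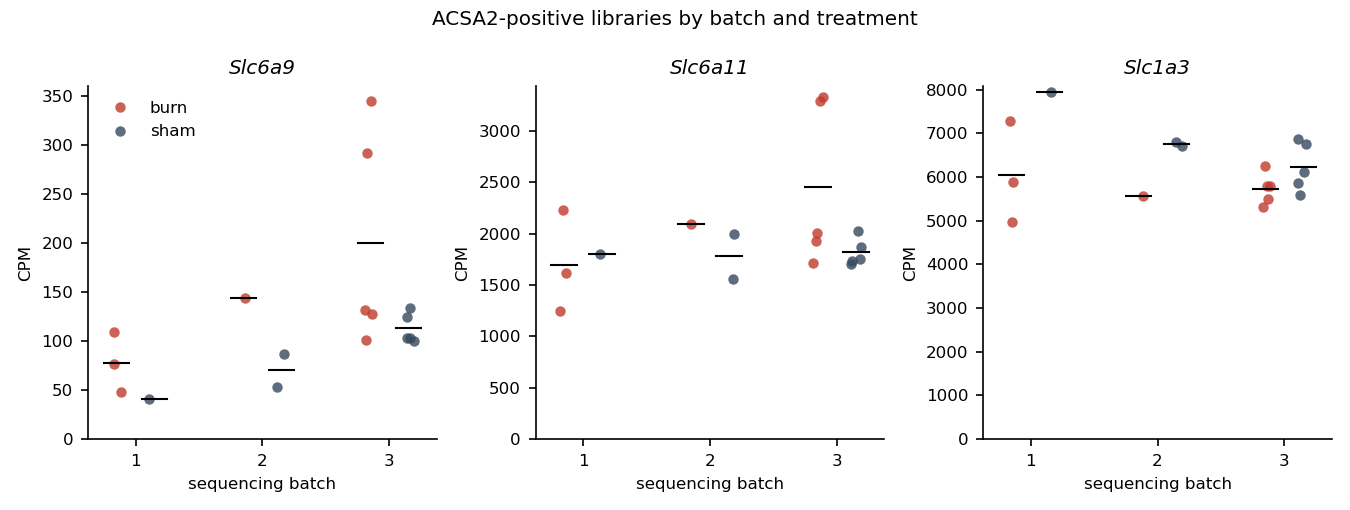
CPM of Slc6a9, Slc6a11 and Slc1a3 in each ACSA2-positive library, by sequencing batch, with burn in red, sham in dark blue and group means as bars, on axes that start at 0. Burn mice 21 and 23 of batch 3 stand apart for Slc6a9 (292 and 345 CPM) and for Slc6a11 (3336 and 3290 CPM), and the Slc1a3 ranges of burn and sham overlap.

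Slc6a9 also differed between batches. It was higher in batch 3 than in batches 1 and 2 by a log2FC of 0.92 ± 0.22 (p.adj = 0.028 in edgeR, under the fold), where 1.03% of 27930 genes were called. Slc1a2 (−0.30, p.adj = 0.18) and Glud1 (−0.27, p.adj = 0.099) had unadjusted p under 0.05 in that contrast. None of the 9 genes was called. In batch 3 alone, burn and sham ranges overlapped for all 9 genes in each of the 4 populations. The share of all genes whose ranges overlap was not counted, so this says nothing particular to the 9.

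In the CD11b-positive libraries 0% of 26079 genes, and none of the 9, were called between burn and sham by edgeR, 2036 genes had an unadjusted p under 0.05, and DESeq2 called 80 genes but none of the 9. Slc38a3 had a log2FC of −1.08 ± 0.54 (p.adj = 0.65) and Slc1a2 one of −0.38 ± 0.19 (p.adj = 0.65). Slc38a3 had 0, 0.664, 0.708, 0.814, 1.14, 1.66, 3.33 and 6.35 CPM in the 8 burn mice, and 0.912, 2.65, 2.79, 3.44, 6.23, 8.50 and 8.58 CPM in the 7 sham mice. Slc1a2 had 31.3, 38.5 and 96.7 CPM as lowest, median and highest in burn and 29.0, 76.0 and 93.3 CPM in sham mice. Both genes were low in batch 1, which held 3 burn mice and 1 sham mouse: Slc1a2 had 32.0 CPM there on average against 66.6 CPM in batch 3, and Slc38a3 0.608 against 4.27 CPM. In batch 3 alone, with 5 mice of each treatment, the log2FC was −0.53 ± 0.21 for Slc1a2 and −1.14 ± 0.50 for Slc38a3 (p.adj = 0.61 for both in edgeR). Mouse 20 of that batch was the highest burn library for both genes. The astrocyte marker sums ran alongside, at 14.1 to 59.2 CPM in burn and 17.1 to 71.3 CPM in sham libraries, with mouse 20 the highest of the burn mice as well. As the median gene of the list, astrocyte markers had 1.70 ± 1.31 CPM in burn and 3.16 ± 1.45 CPM in sham, lower in burn like Slc1a2 and Slc38a3. On that measure endothelial markers had 6.96 ± 3.20 CPM in burn and 15.0 ± 8.66 CPM in sham, all-neuron markers 0.669 ± 0.239 and 1.05 ± 0.586 CPM, and border macrophage or monocyte markers 27.9 ± 7.60 and 18.1 ± 6.32 CPM. Microglia markers had 1614 ± 292 and 1620 ± 350 CPM, excitatory and inhibitory neuron, mural, oligodendrocyte and oligodendrocyte precursor markers were at 0.00316 to 2.05 CPM in burn and 0.00521 to 1.71 CPM in sham, and red blood cell markers at 0. Where a list was above 0, its burn and sham ranges overlapped, and the part of these lists in the differences was not tested. The 3 genes with a level well above the astrocyte markers there, Glul (−0.03 ± 0.08), Glud1 (−0.02 ± 0.07) and Slc1a3 (0.06 ± 0.10), had log2FC within their error of 0.

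In the double-positive libraries 0% of 26707 genes were called by edgeR, 1872 had an unadjusted p under 0.05, and DESeq2 called 2 genes, with none of the 9 called by either tool. Batch 1 held 3 burn mice and no sham mouse here, so with batch as a covariate these 3 add nothing to the burn estimate. The marker values below are not adjusted for batch, so in them burn and batch cannot be told apart fully. All 9 log2FC were above 0, where 49.2% of all genes were, from 0.0015 ± 0.07 (Glud1) and 0.02 ± 0.08 (Glul) to 0.34 ± 0.25 (Slc1a2) and 0.68 ± 0.59 (Slc6a9), and none had an unadjusted p under 0.05. Glul and Glud1 changed sign in some alternatives, given below, and the 9 signs are not independent of one another. The astrocyte marker sums were 194 to 423 CPM in burn and 112 to 454 CPM in sham libraries, and the median gene of that list had 20.4 ± 6.63 and 16.9 ± 10.2 CPM. As the median gene of the list, several others were also higher in burn, at 24.8 ± 24.3 against 11.5 ± 4.53 CPM for endothelial, 9.05 ± 6.74 against 6.49 ± 2.09 CPM for border macrophage or monocyte, 8.04 ± 11.2 against 4.04 ± 2.12 CPM for oligodendrocyte, 5.07 ± 8.30 against 1.68 ± 1.51 CPM for oligodendrocyte precursor, 2.59 ± 2.43 against 1.19 ± 0.478 CPM for mural and 1509 ± 450 against 1344 ± 227 CPM for microglia markers. Inhibitory neuron and red blood cell markers were near 0, and all-neuron (1.47 and 1.73 CPM) and excitatory neuron markers (2.10 and 2.12 CPM) were not higher in burn. The ranges overlapped for every list, and their part in the sign was not tested. In the CaMKII positive libraries 0% of 28107 genes were called by edgeR, 1096 had an unadjusted p under 0.05 and DESeq2 called 3 genes. The 9 genes ran from −0.35 ± 0.37 (Slc6a9) to 0.27 ± 0.33 (Slc1a2), 7 of them above 0, where 51.8% of all genes were, and none was called. Of these 7, Slc38a3 and Glud1 fell below 0 in batch 3 alone, as given below. As the median gene of the list, astrocyte markers had 530 ± 36.9 CPM in burn and 557 ± 78.3 CPM in sham, endothelial markers 483 ± 115 and 565 ± 277 CPM, mural markers 83.1 ± 9.12 and 120 ± 47.5 CPM, oligodendrocyte markers 42.6 ± 16.6 and 86.8 ± 116 CPM, oligodendrocyte precursor markers 115 ± 15.9 and 81.1 ± 29.0 CPM and microglia markers 83.4 ± 29.3 and 67.2 ± 40.7 CPM, and their part was not tested. None of the 12 ratio tests of burn against sham passed either. The nearest was Slc6a11 to Abat in the ACSA2-positive libraries, higher in burn by 0.32 on the log2 scale (exact permutation within batches, p = 0.0446, p.adj = 0.094).

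**Figure D5:**
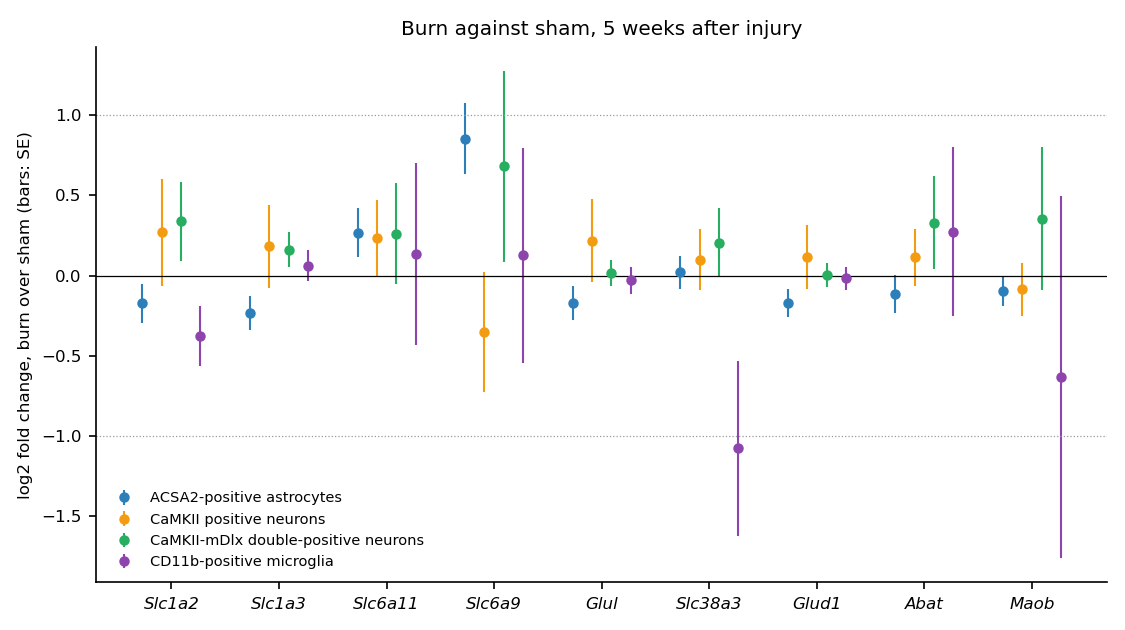
log2 fold change of burn over sham for the 9 genes in each sorted population (points, edgeR) with the SE as bars, and dotted lines at the fold of 1 log2 unit in each direction. No gene was called; Slc6a9 in ACSA2-positive and Slc38a3 in CD11b-positive libraries lie farthest from 0 relative to their SE among the effects above 0.5 in size.

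Whether the burn difference itself differed between populations was tested as an interaction over 33150 genes. Between ACSA2-positive and CaMKII positive libraries 0.00302% of genes were called, and 0% between ACSA2-positive and double-positive and 0% between ACSA2-positive and CD11b-positive libraries, with 2357, 1930 and 2582 genes at an unadjusted p under 0.05. None of the 9 genes was among those called. Glul had the lowest p, with a burn effect lower in the ACSA2-positive than in the CaMKII positive libraries by 0.43 ± 0.15 (log2, SE, p = 0.0068, p.adj = 0.47 in edgeR). Slc38a3 had a burn effect higher in the ACSA2-positive than in the CD11b-positive libraries by 1.10 ± 0.43 (p.adj = 0.43 in edgeR).

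Among the ACSA2-positive libraries themselves, 31 of the 36 pairs of the genes were positively correlated. After batch means were removed, the Pearson correlation of log2 CPM over the 17 libraries was 0.903 for Slc1a2 with Glul, 0.885 for Slc1a2 with Slc1a3 and 0.865 for Slc1a3 with Glul. It was 0.860 for Slc1a3 with Glud1, 0.810 for Abat with Maob, 0.779 for Slc1a2 with Abat and 0.750 for Glul with Maob. Slc6a11 and Slc6a9 went with each other (0.863) and less with Glul, which had −0.232 with Slc6a9 and 0.04 with Slc6a11. These are descriptions over libraries that share depth, batch and sort. Mice 21 and 23 carry the highest values of Slc6a9 and Slc6a11. The correlation with the mean of the astrocyte markers was 0.897 for Slc1a3, 0.818 for Slc1a2, 0.816 for Glul, 0.802 for Maob, 0.797 for Abat and 0.731 for Glud1, against 0.497 for Slc6a11, 0.297 for Slc38a3 and 0.184 for Slc6a9.

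Outside the 9 genes, the genes most like them over the same libraries, among 10021 genes, included Aldoc for Glul (r = 0.957), Lix1 for Slc1a3 (0.953), Ttyh1 for Slc1a2 (0.931), Sfrp5 for Slc6a9 (0.924), Slc4a4 for Slc6a11 (0.922), Tenm3 for Glud1 (0.909), Ube2l3 for Maob (0.908) and Fam189a2 for Slc38a3 (0.889). Aldoc is itself a marker on the astrocyte list and Slc4a4 a bicarbonate carrier of astrocytes.

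The wider pathway, 35 further carriers and enzymes of glutamate, GABA, glycine and glutamine, had members called in both directions. Against the CD11b-positive libraries 22 were called higher and 5 lower in the ACSA2-positive ones, beside 32.1% and 21.7% of all genes (median log2FC 2.71). Against the double-positive libraries it was again 22 and 5, beside 29.1% and 23.3% (2.39). Against the CaMKII positive libraries 9 were called higher and 5 lower, beside 4.34% and 14.1% (0.131), so the count called lower there was near the share of all genes. Among those with the highest level of their role in the ACSA2-positive libraries were Slc7a11, the cystine and glutamate exchanger (1013 CPM), Slc25a18, a mitochondrial glutamate carrier (458 CPM), Gldc of the glycine cleavage system (439 CPM), Aldh5a1, which completes GABA breakdown (173 CPM), Pc, pyruvate carboxylase (165 CPM), Slc38a1 (79.4 CPM) and Slc17a7 (9.71 CPM).

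Several other carriers were called lower in the ACSA2-positive libraries. Slc38a2, a neutral amino acid transporter that carries glutamine, was lower than in the CaMKII positive libraries by 2.38, than in the double-positive by 3.06 and than in the CD11b-positive libraries by 2.73 (log2). Slc38a7 was lower by 1.49 than in both the double-positive and the CD11b-positive libraries. Slc1a1, the glutamate transporter EAAT3, and Slc38a5 were lower than in the CaMKII positive libraries, by 3.11 and 3.04. Slc1a5 and the mitochondrial carrier Slc25a13 were lower than in each of the other 3 sorts, by 1.06 to 1.70 and by 1.01 to 2.78. Against the CaMKII positive libraries these calls were lost in sham mice alone (Slc1a5 −1.20, p.adj = 0.12, and Slc25a13 −1.07, p.adj = 0.12, edgeR). The Slc1a5 call fell under the fold without mouse 18, 19 or 21. The Slc25a13 call was also lost with mouse as a block (p.adj = 0.053), in batch 3 alone (p.adj = 0.16) and without any 1 of 7 mice. Between burn and sham none of the pathway genes tested (33 in CaMKII positive, 32 in double-positive, 35 in ACSA2-positive and 31 in CD11b-positive libraries) was called, and 0, 3, 3 and 1 of them had an unadjusted p under 0.05.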

How the data were processed

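The 4 tables of raw counts deposited by the authors, 1 per sorted population, were used as they stand. The authors trimmed the reads of ribosome-depleted, stranded total RNA with fastp, aligned them with STAR and counted them on Ensembl genes with GenomicAlignments. Per the labels, the submitters' processing notes name GRCm39 and mm10 as builds. Whether the counting used strand is not given in the sources used here. The 4 deposited tables of variance-stabilised values were not used. Each column was assigned to its sample through the column name. Libraries of mouse 3 and the double-positive library of mouse 8 were left out, as the paper did. Batches are those of the paper's animal table.

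CPM are counts over the library total. A count of 0 allows 3 counts, for counting error only. Tests used edgeR 4.0.16 (quasi-likelihood, TMM, R 4.3.3) on genes whose counts summed to 10 or more, and p was adjusted by Benjamini-Hochberg across every gene tested. Burn was tested within each population with batch as a covariate, and populations and interactions in 1 fit over all 58 libraries with batch and treatment. A call meant p.adj of 0.05 or less with a log2FC of 1 or more in size, and the SE is the absolute log2FC over the square root of F. The scripts were tested on simulated data with known changes. Ratios were tested by exact two-sided permutation, of treatment within batches or of signs within mice. Alternatives were DESeq2 1.42.0, other scalings and filters, no batch term, batch 3 or sham mice alone, all deposited libraries, a mouse block and each mouse left out.

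Libraries of the same number come from the same mouse, as the paper's animal table shows, so they pair across populations. Deviations of the same mouse correlated between populations with medians of 0.013 to 0.165 over 10493 genes. Positions come from GENCODE M21 on GRCm38 and promoter stretches from RefSeq on GRCm38.p6, both used for names, lengths and neighbours. The notes do not say which of their builds the reads were aligned to. Overlap with other genes was computed over exon bases by strand and over windows of 50 bases.

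The genes and lists were chosen with earlier results of these data known. Named here are all 9 genes in all populations; of the 35 pathway genes those called between burn and sham, the highest of each role in the ACSA2-positive libraries and those called lower there; and for each of the 9 genes the outside gene with the highest correlation. A few genes named by these criteria are left out of the text. Figures and tables were made with Python 3.11.15.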

Additional observations from a re-analysis of the deposited data

Results flagged for a closer look

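In 3 of 72 groups of 4 to 9 libraries the highest library stood apart from the rest by Dixon's criterion, which chance alone meets in about 1 group in 20. Maob in the ACSA2-positive sham libraries was 171 CPM in mouse 8, against 131 to 147 CPM in the other 7 sham mice. Slc1a2 in the CD11b-positive burn libraries was 96.7 CPM in mouse 20, against 31.3 to 54.8 CPM in the others. Slc6a9 in the CaMKII positive sham libraries was 127 CPM in mouse 15, against 27.1 to 63.5 CPM in the others.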

How the results depend on the processing

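The number of the 9 genes called between ACSA2-positive and CaMKII positive libraries was 5, and 2 with library size only, 4 with DESeq2 and 4 to 5 with each mouse left out. With mouse as a replicate block it was 4, since Slc6a9 had a log2FC of 0.98, and the block changed no other count of the 9. Of the pathway genes named, it ended the Slc25a13 call against CaMKII positive libraries (−1.07, p.adj = 0.053) and made a call of Slc38a1, lower than in CD11b-positive libraries (−1.05, p.adj = 0.0010, edgeR). Between double-positive and CD11b-positive libraries 5 in place of 6 were called in batch 3 alone and in sham mice alone, where Slc6a9 had 0.99 and 0.98. In the contrast of batch 3 with batches 1 and 2, library size only gave 1 call in place of 0, and leaving out each mouse gave 0 to 1 (1 without mouse 7 or 24). The 9 ratio calls were 6 in batch 3 alone, where Slc1a2 to Slc1a3 (0.11) and Slc6a11 to Abat (−0.23) in CaMKII positive and Slc6a11 to Abat in CD11b-positive libraries (−1.26) failed, and 7 to 11 with each mouse left out. The CaMKII positive Slc1a2 to Slc1a3 call was lost without mouse 8, 16 or 22 and the Slc6a11 to Abat call without mouse 8, 16, 19 or 22. Between burn and sham, Slc6a11 to Abat passed in ACSA2-positive libraries without mouse 20 (p.adj = 0.047, exact permutation) or 24 (0.033), and Glul to Slc38a3 without mouse 17 in ACSA2-positive (0.024, exact permutation) or mouse 20 in CD11b-positive libraries (0.039). The causes were not tested. Levels moved by less than 1 SD in all 108 alternatives, and no alternative made a burn call among the 9 genes.

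Signs changed for these differences, none of them called as reported. For burn against sham, log2FC changed sign in CaMKII positive libraries for Slc38a3 (−0.023) and Glud1 (−0.027) in batch 3 alone and for Maob (0.039) with all deposited libraries. The same held in double-positive libraries for Glul (−0.020, no batch term) and Glud1 (−0.0069 with library size only, −0.00043 with filterByExpr), in ACSA2-positive libraries in batch 3 alone for Abat (0.14) and Maob (0.042), and in CD11b-positive libraries for Slc6a11 (−0.25 with no batch term, −0.00054 in batch 3 alone) and Glud1 (0.0039 with no batch term, 0.0013 with all deposited libraries). ACSA2-positive against CaMKII positive libraries had Slc38a1 at 0.41 in batch 3 alone and Slc38a7 at −0.081 with library size only, and against double-positive libraries Slc17a7 was at −0.25 in batch 3 alone and −0.053 in sham mice. Double-positive against CD11b-positive libraries had Glul at −0.060 with all deposited libraries and −0.011 in sham mice, and Glud1 at −0.015 in batch 3 alone, −0.080 with all deposited libraries and −0.041 in sham mice. The burn difference of the Slc6a11 to Abat ratio in CaMKII positive libraries was −0.17 in batch 3 alone.

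With each mouse left out, burn log2FC crossed 0 in CaMKII positive libraries for Slc38a3 (−0.027 to 0.16), Glud1 (−0.031 to 0.19) and Maob (−0.18 to 0.025), in double-positive libraries for Glul (−0.012 to 0.052) and Glud1 (−0.031 to 0.036), in ACSA2-positive libraries for Slc38a3 (−0.049 to 0.088), and in CD11b-positive libraries for Slc1a3 (−0.0054 to 0.12), Slc6a11 (−0.19 to 0.37), Slc6a9 (−0.038 to 0.38), Glul (−0.068 to 0.027) and Glud1 (−0.040 to 0.011). So did Slc38a1 between ACSA2-positive and CaMKII positive (−0.54 to 0.15) and Glul between double-positive and CD11b-positive libraries (−0.00084 to 0.048), and the burn difference of Slc6a11 to Abat in CaMKII positive (−0.16 to 0.27), double-positive (−0.21 to 0.10) and CD11b-positive libraries (−0.84 to 0.15). In the CD11b-positive libraries Slc6a11, Slc6a9, Slc38a3, Abat and Maob were at a few CPM, which limits every comparison there.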

Other observations

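In the libraries left out of every comparison, the double-positive library of mouse 8 held 331215 counts, and 8 of the 9 genes lay outside the range of the 16 libraries analysed. In the libraries of mouse 3, 6 of the 9 lay outside that range in the CaMKII positive and 2 in the CD11b-positive sort, and 0 in the ACSA2-positive and double-positive sorts.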
